A study of Mus musculus with 2 samples.

Results

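The miR-26 family of the mouse consists of 3 microRNA genes, Mir26b, Mir26a-1 and Mir26a-2, and all 3 were present among the 1973 microRNA genes counted in embryonic lung. The genes were taken by name from the annotation. MicroRNAs were sequenced from whole lung at embryonic day 15.5, in mice whose strain the labels give as B6NCrl. Lungs of 78 healthy embryos of both sexes were pooled for replicate 1 and those of 62 for replicate 2, with no treatment and no mutant allele named. The 2 libraries form 1 group, so the design holds levels within the lung and no contrast between conditions. Both libraries carry the same donor identifier, but they are labelled as biological replicates and come from separate pools. Their spread covers embryos, pooling, dissection and library preparation, which cannot be told apart.

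MicroRNAs are cut from hairpin precursors, and 1 strand of the cut duplex, from the 5p or the 3p arm, is loaded into an Argonaute protein and pairs with target RNAs mainly through its seed, bases 2 to 8. The miR-26 family is known for restraining the cell cycle and for lowering EZH2, the methyltransferase of the Polycomb complex. Its host genes encode small phosphatases that act on the C-terminal domain of RNA polymerase II, serve as cofactors of the neuronal gene silencer REST and remove phosphate from the retinoblastoma protein RB. In zebrafish, miR-26b is known to act on the transcript of its host ctdsp2.

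The 5p products are shown because they carry the family's seed and because 2 of the 3 genes make the same one. RefSeq (GRCm38.p6) had sequences for 3 of 3 members, and capitals mark the seed.
miR-26b-5p: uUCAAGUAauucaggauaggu
miR-26a-5p: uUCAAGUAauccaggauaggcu
miR-26b-3p: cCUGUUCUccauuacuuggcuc
miR-26a-1-3p: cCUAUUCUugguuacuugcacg
miR-26a-2-3p: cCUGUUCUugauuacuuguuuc
The 5p seed UCAAGUA was found in 2 mature mouse sequences of that table, miR-26a-5p and miR-26b-5p. Over the 21 positions that both have, miR-26b-5p differed from miR-26a-5p by C11U and C21U, counted from the 5′ end with the base of miR-26a-5p first, and 0 of these changes fell in the seed. The 3p products were more unlike. Between miR-26a-1-3p and miR-26a-2-3p there were 6 changes in 22 positions, of which A4G lay in the seed. The 3p seed of miR-26a-2-3p was also that of miR-26b-3p, with 4 changes between them outside it. That seed was found in 4 mature mouse sequences, which also include miR-6932-3p and miR-7039-3p.

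The precursors are shown whole because reads from inside the repeated stretch match more than 1 locus. Capitals mark the 5p product in Mir26b, and in the other two the longest stretch that both copies hold.
Mir26b: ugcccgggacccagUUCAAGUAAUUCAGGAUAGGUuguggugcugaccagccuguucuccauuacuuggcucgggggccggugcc
Mir26a-1: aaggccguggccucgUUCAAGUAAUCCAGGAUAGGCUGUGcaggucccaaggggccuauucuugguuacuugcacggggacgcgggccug
Mir26a-2: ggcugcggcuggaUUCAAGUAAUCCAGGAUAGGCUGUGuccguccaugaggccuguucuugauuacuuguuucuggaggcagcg
The stretch shared by Mir26a-1 and Mir26a-2 was 25 nt long. It began at the first base of miR-26a-5p and ran 3 nt past its end. A read of the annotated miR-26a-5p therefore has the same letters from both copies. Mir26b shared at most 11 nt with Mir26a-1 and 10 nt with Mir26a-2. Among 2235 annotated mouse precursors, miR-26a-5p occurred in 2, the Mir26a copies, and each of the 4 other mature sequences occurred in 1. In 141767 GENCODE transcripts, searched on both strands, none of the 5 sequences occurred outside those precursors.

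Cut into windows of 22 nt, the length of miR-26a-5p, Mir26a-1 gave 69 windows and Mir26a-2 gave 63. In each copy 4 of these windows were also in the other copy and in no further precursor. They were the windows that start at the first 4 bases of the 5p product. Some of these windows run into the first bases of the loop. All other windows, with those over the rest of the loop and the 3p arm, occurred in 1 precursor. In Mir26b, 0 of 64 windows occurred elsewhere.

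**Figure D1:**
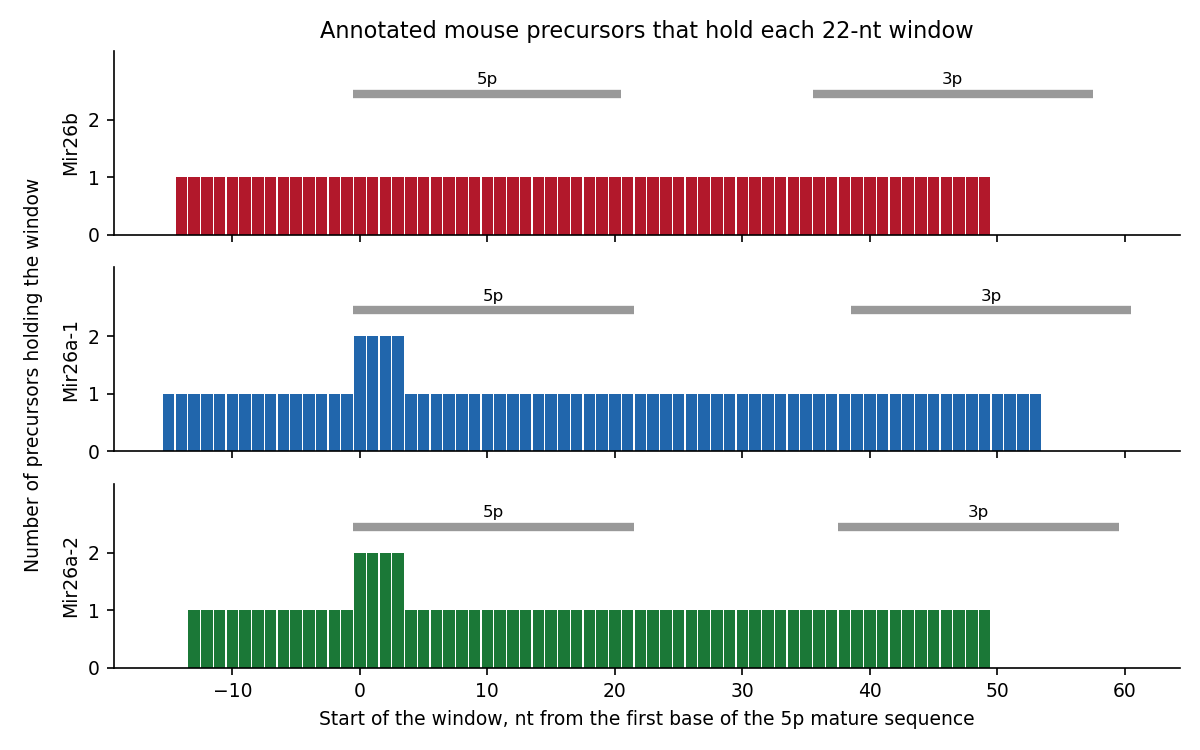
The number of annotated precursors (vertical axis) that hold each 22-nt window of Mir26b, Mir26a-1 and Mir26a-2, by the start of the window in nt from the first base of the 5p product (horizontal axis), with grey bars for the 5p and 3p products. Only 4 windows of each Mir26a copy reach 2 precursors, all starting at the 5p product, and every window of Mir26b stays at 1.

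All 3 genes lie in an intron of a gene of the small phosphatase family, on the host's strand, in positions of the mm10 assembly. Mir26b (ENSMUSG00000065468.1, chromosome 1, 74394310 to 74394394, plus strand) lies in intron 4 of 6 of Ctdsp1. Mir26a-1 (ENSMUSG00000065513.1, chromosome 9, 119031796 to 119031885, plus strand) lies in intron 5 of 7 of Ctdspl. Mir26a-2 (ENSMUSG00000065430.1, chromosome 10, 126995530 to 126995613, plus strand) lies in intron 5 of 7 of Ctdsp2. These introns correspond in their surroundings. In each host the intron follows an exon of 57 nt, precedes an exon of 93 nt and has 2 introns after it, in the full-length coding transcript that spans the precursor. Their sizes differed, at 564 nt in Ctdsp1, 3283 nt in Ctdspl and 1946 nt in Ctdsp2. The precursor began 234 nt into the intron for Mir26b, 1543 nt for Mir26a-1 and 1621 nt for Mir26a-2. In Ctdsp2 the annotation also has 2 shorter transcripts, whose first base, 126995613, is the last base of the Mir26a-2 precursor. The host transcripts themselves were not measured in these libraries.

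Levels are given as CPM, counts per 1000000 reads counted on the annotated strand of any microRNA gene. Replicate 1 held 5354530 such reads and replicate 2 held 6489390, so 1 count was worth 0.187 and 0.154 CPM. A read is 1 whole short RNA, and counts were not divided by the precursor's length of 84 to 90 nt. A precursor's count pools its 5p and 3p products. Detection meant at least 10 counts in each library. All 3 members were detected, beside 18.1% of all 1973 genes in the tables. At 100 counts in each library 2 of the 3, Mir26b and Mir26a-2, would pass, beside 12.9% of all genes. The opposite strand had 0 counts at each of the 3 loci in both libraries.

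By reads counted in genes, Mir26b, the copy inside Ctdsp1, was among the most abundant microRNA genes of the lung. It had 146763 counts in replicate 1 and 187784 in replicate 2. These came to 27409 CPM in replicate 1 (95% exact Clopper-Pearson interval 27271 to 27548) and 28937 CPM in replicate 2 (28808 to 29066). These intervals and those that follow are binomial intervals on reads, so they account for counting error alone. Reads carried no recorded molecular identifiers, so copies of the same molecule count as separate reads and the intervals can be too narrow. The mean was 28173 ± 1080 CPM (SD, n = 2), which placed the gene at rank 10 in replicate 1 and rank 9 in replicate 2. Reads mapped to several places are assumed to be counted in no gene. The ranks therefore do not hold for genes whose products are repeated elsewhere. In whole lung, fewer cells of a type and less RNA per cell cannot be told apart.

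Mir26a-1, in Ctdspl, had 54 counts in replicate 1 and 65 in replicate 2. That was 10.1 CPM (95% interval 7.58 to 13.2) and 10.02 CPM (7.73 to 12.8), with ranks of 285 and 283. Its mean of 10.1 ± 0.0485 CPM (SD, n = 2) had a spread far smaller than the counting intervals, so that SD understates the error.

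Mir26a-2, in Ctdsp2, had 228 counts in replicate 1 and 324 in replicate 2. That was 42.6 CPM (95% interval 37.2 to 48.5) and 49.9 CPM (44.6 to 55.7), with ranks of 224 and 217. Its mean was 46.3 ± 5.20 CPM (SD, n = 2). Both libraries put it above Mir26a-1 and far below Mir26b, and no values of the 3 genes overlapped.

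**Figure D2:**
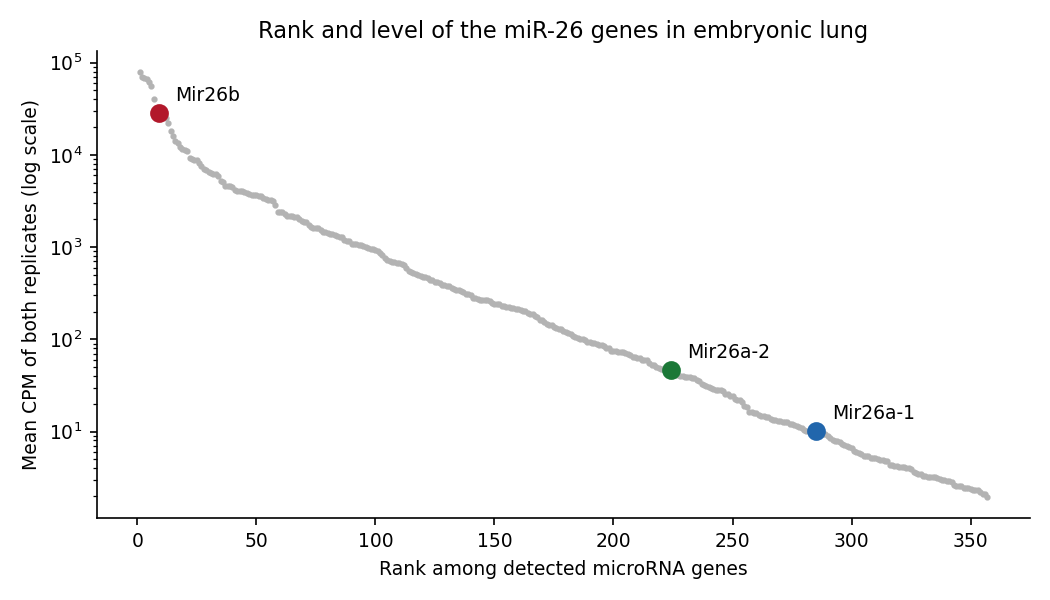
Mean CPM of both replicates on a log scale (vertical axis) against rank among the 357 detected microRNA genes (horizontal axis), grey points for all genes and coloured points for the miR-26 genes. Mir26b stands at rank 9, Mir26a-2 at rank 224 and Mir26a-1 at rank 285.

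The family took 2.75% of the counts in replicate 1 and 2.90% in replicate 2, a mean of 2.82% ± 0.109 (SD, n = 2). Mir26b held 99.81% of the family's counts in replicate 1 and 99.79% in replicate 2. The Mir26a copies together held 282 and 389 counts, or 52.7 and 59.9 CPM. Of those, Mir26a-2 held 80.9% in replicate 1 (95% exact interval 75.8 to 85.3) and 83.3% in replicate 2 (79.2 to 86.9). These shares describe reads that could be placed at 1 locus. The tables give reads mapped to several places on a separate summary line, here assumed to be counted in none of the genes, and a read of the annotated miR-26a-5p has the same letters from both copies. That line held 3588198 reads in replicate 1 and 4144809 in replicate 2, which is 24.4 and 22.1 times the Mir26b counts of the same library. The tables do not say which sequences those reads carried, so the level of miR-26a-5p in the lung was not measured here, and the order of miR-26a and miR-26b cannot be read from these counts. Which arm gave the placed reads of the Mir26a copies is not recorded either.

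For the 3 pairs of members the log2 ratio of CPM was taken in each library. Mir26b over Mir26a-1 gave 11.41 in replicate 1 and 11.50 in replicate 2, a mean of 11.45 ± 0.0623 (SD, n = 2) or 2802-fold. Mir26b over Mir26a-2 gave 9.33 and 9.18, a mean of 9.25 ± 0.107 or 611-fold. Mir26a-1 over Mir26a-2 gave -2.08 and -2.32, a mean of -2.20 ± 0.169, so that the placed reads of Mir26a-1 were 0.218 times those of Mir26a-2. Each log2 ratio was many times its SD, but an SD of 2 values is itself uncertain. For the ratios with Mir26a-1, at 54 and 65 counts, it can understate the error. The exact 2-sided permutation test of the CPM values gave p = 0.333 for each of the 3 pairs (0.333 after Benjamini-Hochberg adjustment over them), which is as low as 2 values against 2 can go, so no pair could pass 0.05. Each ratio sets genes with different shares of placeable sequence against each other, and the part of that difference in the ratios was not tested.

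The gap between the 2 libraries was smallest for Mir26a-1 and largest for Mir26a-2. For Mir26b the log2 ratio of replicate 1 over replicate 2 was -0.08, with a 95% exact interval of -0.09 to -0.07. The 1.06-fold gap thus exceeded counting error where each read is taken as independent. For Mir26a-2 it was -0.23, with an interval of -0.48 to 0.02, a gap of 1.17-fold that was not detectable beyond counting error at this depth. For Mir26a-1 it was 0.01, with an interval of -0.54 to 0.55 that leaves room for a larger gap either way. For comparison, the median gap of the 357 detected genes was 1.10-fold, and 29.1% of them had a smaller gap than Mir26b and 68.6% a smaller one than Mir26a-2.

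**Figure D3:**
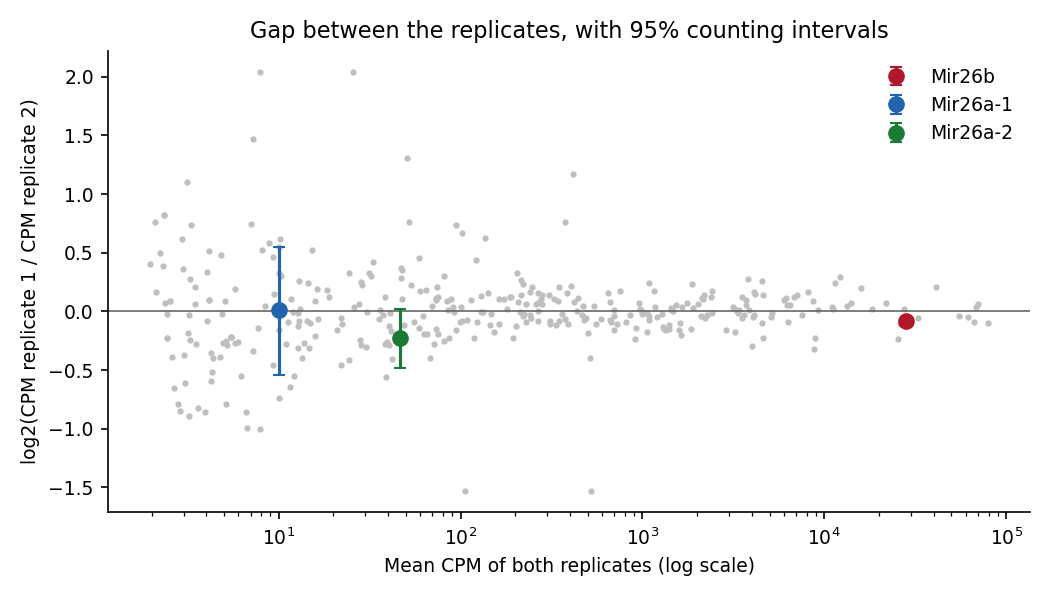
The log2 ratio of CPM in replicate 1 over replicate 2 (vertical axis) against the mean CPM of both on a log scale (horizontal axis) for the 357 detected genes in grey, with 95% exact intervals for the miR-26 genes. Mir26b lies at -0.08 with an interval too narrow to see, Mir26a-2 at -0.23 and Mir26a-1 at 0.01.

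The genes most like each member in level were those with the smallest log2 difference in CPM, taking the larger of the differences in the 2 libraries. For Mir26b these were Mir23b (0.08), Mir17 (0.13), Mir10a (0.22), Mir130a (0.24) and Mirlet7d (0.43). Mir23b, of a cluster known from endothelium, had 27783 CPM in replicate 1 and 27406 in replicate 2. It was above Mir26b in replicate 1 and below it in replicate 2, so the order of Mir23b and Mir26b differed between the libraries. Mir17, of the proliferation-linked cluster in Mir17hg, had 25009 and 26862 CPM, both below either Mir26b value. Mir10a, of the HOX clusters, had 32014 and 33265 CPM, both above it. Mir130a had 23231 and 27408 CPM, the higher of which falls just short of the lower Mir26b value.

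Around Mir26a-2 the nearest genes were Mir33 (0.13), Mir326 (0.20), Mir29c (0.21) and Mir301b (0.23), with means from 40.5 to 48.7 CPM. Around Mir26a-1 they were Mir3061 (0.09), Mir346 (0.16), Mir7654 (0.16) and Mir7655 (0.18), with means from 9.42 to 10.3 CPM. The counting intervals of Mir26a-1 in both libraries took in the means of all 4 of its neighbours, so their order is not resolved at this depth.

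**Figure D4:**
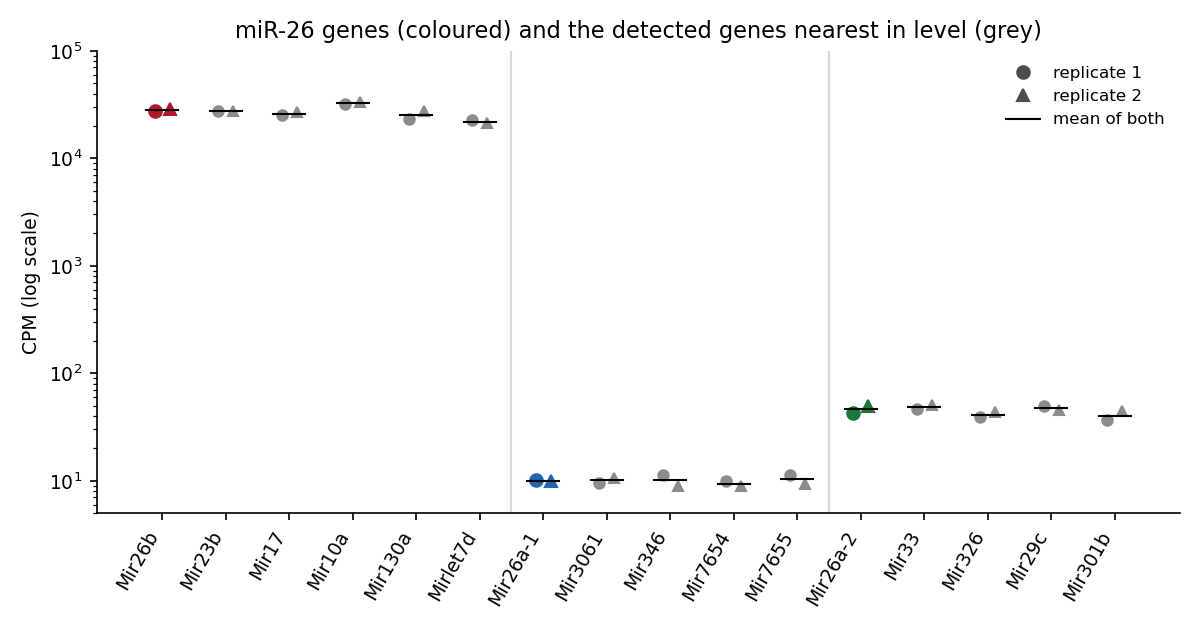
CPM on a log scale (vertical axis) for each miR-26 gene, coloured, followed by the detected genes nearest to it in level, grey (horizontal axis); circles are replicate 1, triangles replicate 2 and black lines the mean of both. The Mir26b group sits near 28173 CPM, the Mir26a-1 group near 10.1 CPM and the Mir26a-2 group near 46.3 CPM.

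MicroRNA genes that lie within a protein-coding gene on the same strand, as all miR-26 genes do, numbered 854, of which 171 were detected, a share near the 18.1% over all genes, with a median of 74.4 CPM. By reads counted in genes, Mir26b was the fourth most abundant of them. Above it stood Mir126a in Egfl7, known from endothelium, at 67953 ± 1347 CPM, Mirlet7g in Wdr82 at 66802 ± 2927 CPM and Mir335 in the imprinted gene Mest at 55222 ± 1165 CPM (SD, n = 2 each). Mir26a-2 ranked 95 and Mir26a-1 ranked 128 of the 854. In placed reads, both were thus below the median of detected hosted genes, while their relative in Ctdsp1 was near the top. Reads of the annotated miR-26a-5p match both copies and are assumed to be counted in neither. The level of miR-26a among hosted microRNAs therefore cannot be read from these ranks.

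To place the Mir26a copies among genes with the same feature, the 916 genes of the tables with mature sequences in RefSeq were sorted by whether those sequences also occur in another annotated precursor. Mir26b was 1 of 812 genes with no repeated product among those listed. Of these, 279 (34.4%) were detected, at a median of 189 CPM among those detected, and 7 exceeded Mir26b. RefSeq lists only 1 product for some of the 812, such as Mirlet7a-2, so a product it leaves out was not compared. Mir26a-1 and Mir26a-2 were 2 of 56 genes with some products repeated and some not. In that class 37 genes (66.1%) were detected, at a median of 46.3 CPM. Mir26a-2 was itself the gene at that median, with 18 detected genes of the class below it, and 6 lay below Mir26a-1. Where all products were repeated, 8 of 48 genes (16.7%) were detected, at a median of 88.0 CPM among those detected. The highest gene with any listed product repeated was Mirlet7f-2, at 4173 CPM, so 0 of these 104 genes reached the level of Mir26b. That holds for whole mature products. Of 961 genes of the tables whose precursor shares any window of 18 nt with another, 90 were detected. Of 933 genes without such a window 267 were detected, beside 18.1% over all genes. In the class with a shared window 2 genes exceeded Mir26b, Mirlet7g and Mirlet7i, and Mir26b was not in that class either. This is a description of placed reads, and lower counts of such genes can hold both fewer molecules and fewer reads that map to 1 place, which cannot be told apart here.

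**Figure D5:**
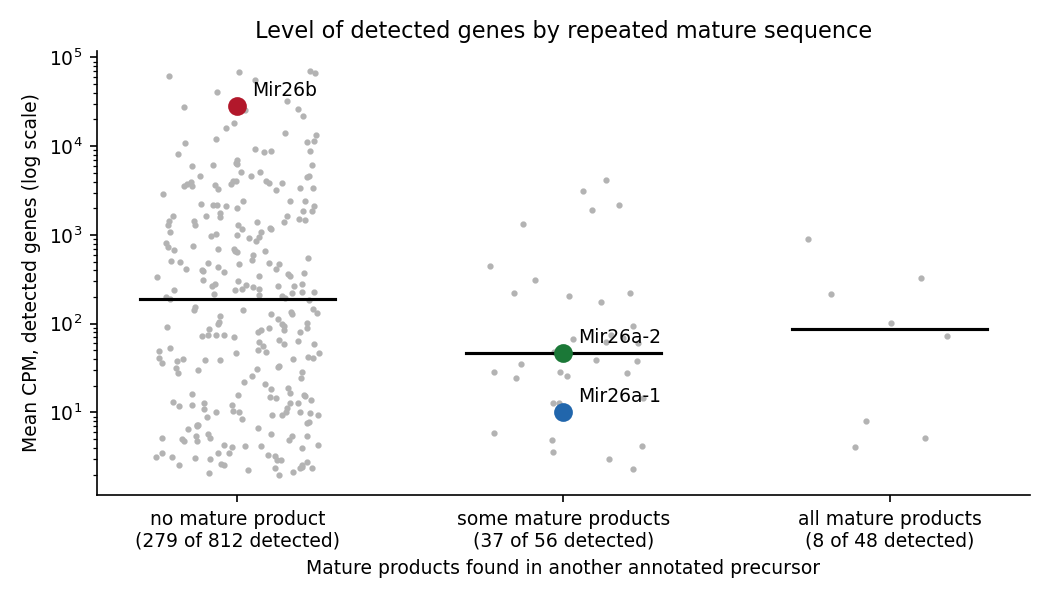
Mean CPM on a log scale (vertical axis) of detected genes whose mature products occur in no other precursor, or of which some or all also occur in another (horizontal axis); grey points are genes, black lines medians of detected genes, coloured points the miR-26 genes. Mir26b stands near the top of the first class, while Mir26a-2 marks the median of the second (46.3 CPM) with Mir26a-1 below it.

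Mir26a was 1 of 45 sets of microRNA genes whose symbols differ only in a copy number. The 45 sets held 111 genes, of which 41 were detected, beside 357 of 1973 (18.1%) over all genes. By counts summed over copies and libraries the Mir26a pair came to rank 14, with a summed mean of 56.3 ± 5.15 CPM against a median of 2.38 CPM over the sets. The leading sets were Mir92 (3360 CPM), Mir16 (2606 CPM), Mir181a (1966 CPM), Mir181b (1371 CPM) and Mirlet7a (596 CPM). The gap between the copies of Mir26a, 2.20 on the log2 scale of their mean CPM, was within the range of those sets, whose gaps between copies ran from 0.29 for Mirlet7a to 5.57 for Mir181b. The uncertainty on reads mapped to several places applies to all of them.

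Other microRNAs known to lower G1 cyclins, CDKs or CDC25A act on the same step of the cell cycle as miR-26 and its hosts. Of 24 such genes listed, 21 were in the tables and 21 of those were detected, beside 18.1% of all genes, with a median of 1161 CPM beside 123 CPM over all 357 detected genes. The remaining 3, Mirlet7e, Mirlet7f-1 and Mir497, were not analysed here. Mir26b was below 2 of them, Mirlet7g and Mirlet7i (61355 ± 1404 CPM), and above the other 19, led by Mirlet7d (21967 ± 764 CPM) and Mir98 (11179 ± 131 CPM). By mean CPM, Mir26a-1 was below all 21, although Mir449b had 8.96 CPM in replicate 1 against 10.1 CPM for Mir26a-1 there. Mir26a-2 was above only Mir34b (24.3 CPM), Mir449c (14.9 CPM) and Mir449b (11.5 CPM). Those orders rest on placed reads. The uncertainty on reads mapped to several places applies to the Mir26a copies and to listed genes with repeated products, such as Mir16-1.

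The tissue label was checked against marker microRNAs. All 5 genes of the epithelial miR-200 family, endothelial Mir126a and Mir143 and Mir145a of smooth muscle were detected, beside 18.1% of all genes. Their means ran from 855 CPM for Mir200a to 79294 CPM for Mir143. Detection alone did not set them apart, because the markers of liver, heart, red blood cells and leukocytes were detected too. Those markers of other tissues were lower, from 374 CPM for Mir122 of liver to 667 CPM for Mir223 of leukocytes among their leading genes. The highest of them was thus not far below Mir200a. The Mir124a copies of neurons were listed at 0 but share sequence with each other. Mir208b of heart (269 CPM in replicate 1, 780 in replicate 2) and Mir208a (573 and 255 CPM) differed between the pools, while Mir26b did not move by more than 1.06-fold.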

How the data were processed

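Small RNA inserts under 30 nt were sequenced as 1 library from each of 2 pools of embryonic lung. Per the readme of each library, the authors' deposited values are raw counts of reads per microRNA gene, made on mm10 with GENCODE annotation M4. For the aligner and counter, names and settings were not given in the sources used. Each table had 3 columns of counts, judged from their totals to be reads on either strand, the annotated strand and the opposite strand, and 4 summary lines, which stayed out of library sizes. Reads mapped to several places made up 31.4% of replicate 1 and 30.6% of replicate 2.

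The column of the annotated strand was used. CPM was computed over all gene rows, with means and SDs over 2 replicates. With 1 group there was no test across genes. Of 1973 gene identifiers, 1894 matched GENCODE M21 (GRCm38, the assembly of mm10), which gave names and positions. A genome sequence was not used. Repeated sequence was instead searched in 2202 GENCODE and 33 further RefSeq precursors, a choice made after seeing the reference. The members, lists, tests and most alternatives were chosen with earlier results of these data known. Genes named besides the members were the 5 nearest to Mir26b and 4 nearest to each Mir26a copy in level, the 4 highest of the G1 to S list, the 5 highest copy sets and the tissue markers; others were named after their values were seen. Alternatives were counts on either strand, other totals, edgeR 4.0.16 TMM factors, DESeq2 1.42.0 size factors, other minimum counts, window lengths and mismatches, and each replicate alone. Procedures were tested on simulated counts with counting error alone and on a planted shared stretch. That simulation held no variation between pools and no reads mapped to several places, so it cannot show how the intervals hold under either. The software was R 4.3.3 and Python 3.11.15 (scipy 1.17.1, pandas 2.3.3, matplotlib 3.10.9, numpy 2.4.6).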

Additional observations from a re-analysis of the deposited data

How the results depend on the processing

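Of 54 recomputed values 44 stayed within limits of 1 SD between replicates for a level or share, 1.5 times for a count and the same sign for a ratio, while 10 moved and 0 changed direction. The ratios between members could not differ with counts on either strand, since the opposite strand had 0 counts at these loci. Each replicate alone gives ratios already averaged in the main values. A level or share in 1 replicate always lies within 1 SD of the mean of 2, so those values could not move. Members detected in both libraries also pass in each alone and at a minimum of 1 count. The number that stayed is therefore not a measure of how stable the results are. With all reads of a library as the total, levels were 13369.5 CPM for Mir26b, 4.77 CPM for Mir26a-1 and 21.96 CPM for Mir26a-2, and the family's share was 1.34%, by the construction of that total. With Mir143 left out of the total, Mir26b stood at 30602 CPM, Mir26a-1 at 10.9 CPM and the share at 3.07%. Counts on either strand put Mir26a-1 at 9.76 CPM. TMM factors gave 28181 CPM for Mir26b and DESeq2 size factors 28178 CPM. At a minimum of 100 counts, passed by 12.9% of all genes, 2 of the 3 members were detected, without Mir26a-1. Detected genes with repeated sequence numbered 45 of 104 by mature product, 43 of 821 by windows of 24 nt and 90 of 961 by windows of 18 nt. The classes differ in size, so like counts of detected genes are not like shares. With up to 2 mismatches allowed, chosen after seeing the data, miR-26b-5p also matched both Mir26a precursors and miR-26a-5p also matched Mir26b, 3 precursors each. With 1 mismatch neither gained a match. Matches in the genome outside annotated precursors and transcripts were not analysed here. No paired analysis was possible because there is 1 group and no second one to pair with it; the ratios between members were taken within each library. Depth limits Mir26a-1 most, at 54 and 65 counts.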
